A study of Mus musculus with 6 samples.

Results

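The genes described here are 8 mouse genes of fibroblast growth factor (FGF) signalling: the ligands Fgf4, Fgf15 and Fgf17, the receptor Fgfr2, the co-receptor Klb, and the ERK-responsive genes Dusp4, Etv5 and Phlda1. The genes were chosen with earlier results of these data known. All their probes were then taken by platform gene symbol, whatever the values. These are 9 of the 11097 probes in the deposited value table, since Dusp4 has 2 probes. Messenger RNA was measured on 6 one-colour Illumina bead arrays. All cells were R1 mouse embryonic stem cells carrying a Sox17-GFP construct. They were driven towards definitive endoderm, the germ layer that forms the gut lining, with Activin A and Wnt3A over 6 days and sorted for GFP. The groups were sorted cells passaged 6 times on a mouse mesenchyme called mesenchyme 2, sorted cells passaged 6 times on mesenchyme 1, and sorted unpassaged cells labelled as cultured on gelatin (P0). Per the extraction protocol, RNA came from GFP-positive cells isolated by sorting. The labels do not give the tissue or source of either mesenchyme. Each group has 2 arrays, which the series calls technical duplicates. P-values therefore cover the spread between arrays and not that between cultures. P0 differs from the passaged groups in both passage and substrate, so passage and mesenchyme cannot be told apart in differences from P0. With technical duplicates only, mesenchyme and single culture cannot be told apart either.

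FGF ligands bind receptor tyrosine kinases of the FGFR family together with heparan sulfate, and the receptors signal through RAS, RAF and MEK to the kinase ERK. ERK then induces genes that include ETS transcription factors, such as Etv5, and dual-specificity phosphatases, such as Dusp4, which dephosphorylate MAP kinases and so form negative feedback. In the mouse blastocyst, FGF4 made by epiblast precursors acts on neighbouring cells and promotes the primitive endoderm, the source of parietal and visceral endoderm. FGF15, the mouse counterpart of human FGF19, belongs to the endocrine FGFs, which need a Klotho-family co-receptor such as KLB.

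Array medians lay between 127.6 and 135.5 on the deposited linear intensity scale. Correlations of log2 values across probes, which are not independent replicates, were 0.993 to 0.994 within groups and 0.875 to 0.96 between them. Across all arrays 25.6% of values lay below an intensity of 50, and duplicates of the dimmest quartile of probes had a median log2 SD of 0.206, beside 0.0768 for the brightest quartile. No detection call was used, so low intensities may be background. Sox17, the gene behind the sort, had 722 and 680 on mesenchyme 2, 83.2 and 80.5 on mesenchyme 1, and 103 and 90.6 in P0. On mesenchyme 1 and in P0 it lay below the array medians, and the probes for the endoderm genes Foxa2, Cxcr4, Gsc, Cer1 and Epcam were not analysed here, so the label endoderm was checked only in part. The pluripotency genes Pou5f1 and Nanog stood at 1020 and 1630 on mesenchyme 2, 2280 and 2000 on mesenchyme 1, and 2830 and 2310 in P0 (Pou5f1 first; geometric means of 2 arrays).

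Between the cultures on the different mesenchymes, 7 of the 8 genes and 8 of the 9 probes were called, meaning that limma gave them an adjusted p under 0.05 and they differed at least 2-fold. On mesenchyme 2 the ligands Fgf4, Fgf15 and Fgf17 and the ERK target Etv5 were lower than on mesenchyme 1, and Klb, Dusp4 and Phlda1 were higher. Of all 11097 probes, 25.8% were called in this comparison (13.5% higher and 12.3% lower on mesenchyme 2). Against P0, mesenchyme 2 had 6 of 9 member probes called, 3 higher and 3 lower, where 18.3% of all probes were called. Mesenchyme 1 had 4 of 9 called against P0, 2 higher and 2 lower, where 6.02% of all probes were called. The median absolute log2 difference of the member probes was 1.91 between the mesenchymes, 2.15 for mesenchyme 2 against P0 and 0.96 for mesenchyme 1 against P0, beside 0.56, 0.47 and 0.33 over all probes. The arrays of the groups did not overlap for 9 of 9 member probes between the mesenchymes, 9 for mesenchyme 2 against P0 and 8 for mesenchyme 1 against P0; this held for 84.8%, 82.4% and 75.2% of all probes, so it is near the background. The genes were chosen with earlier results of these data known, so these counts describe the genes and do not test the pathway. In bulk samples, fewer cells of a type and less RNA per cell cannot be told apart.

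**Figure D1:**
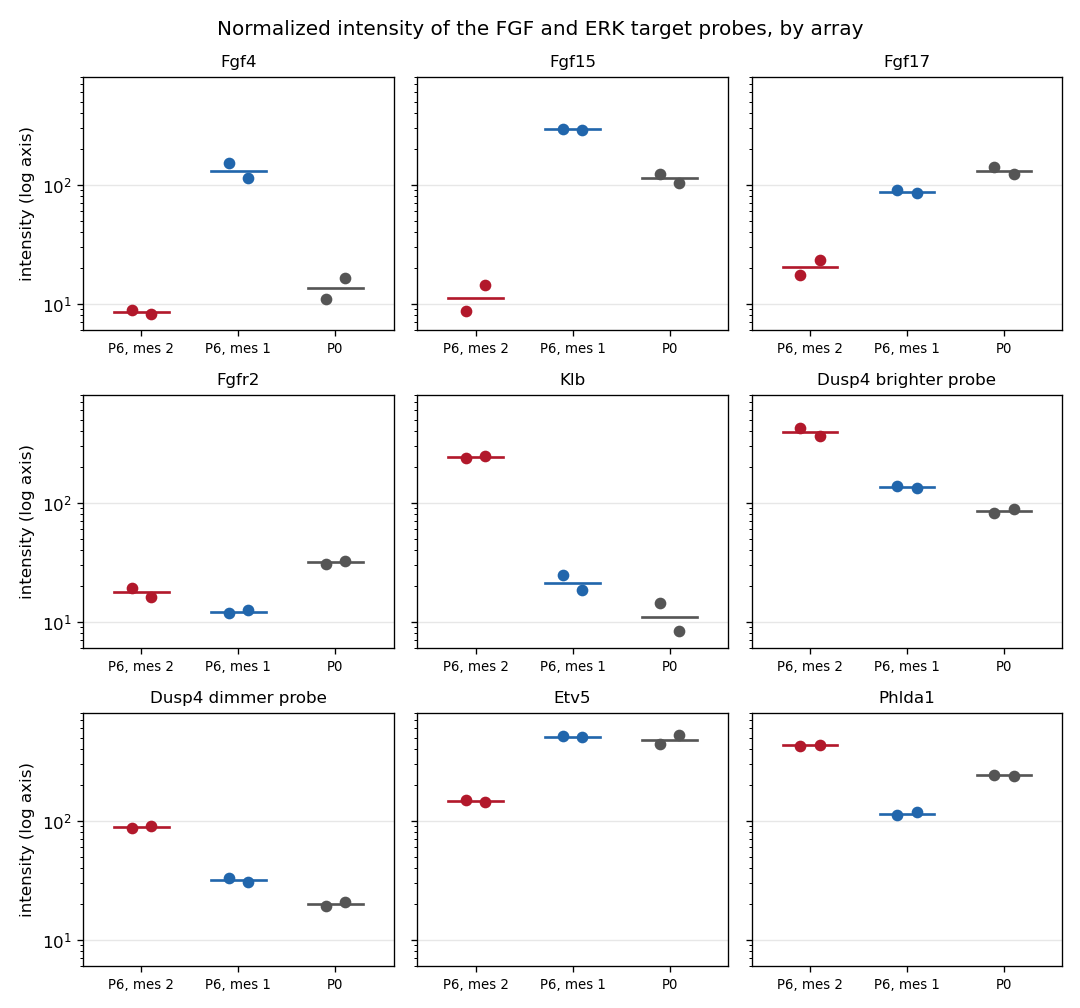
Normalized intensity (log axis) of the 9 member probes on each array of mesenchyme 2, mesenchyme 1 and P0; points are arrays and bars geometric means of 2 arrays. Fgf4, Fgf15, Fgf17 and Etv5 are lowest on mesenchyme 2, while Klb, both Dusp4 probes and Phlda1 are highest there.

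Fgf4 encodes the FGF of the inner cell mass. Its probe read 8.9 and 8.18 on mesenchyme 2, 152 and 114 on mesenchyme 1, and 11.1 and 16.5 in P0. Only the mesenchyme 1 arrays were near the middle of their intensity distributions, at percentiles 54.2 and 47, and both other groups lay at or below percentile 4.25. The gene was 9.72-fold higher on mesenchyme 1 than in P0 (log2 difference 3.28 ± 0.216, standard error; limma adjusted p = 0.000253), the rise ranked 2 of 11097 probes. Mesenchyme 2 stood 15.4-fold below mesenchyme 1 (log2 difference -3.95 ± 0.216, limma adjusted p = 1.31e-05), and since its arrays read at the bottom of the range, this fold was 6.01 with 16 added and 3.11 with 50 added. Fgf4 on mesenchyme 2 against P0 differed by -0.66 ± 0.216, short of 2-fold, so the order of these lowest groups is not settled. With 16 added to every intensity the rise on mesenchyme 1 was 4.97-fold and with 50 added 2.85-fold, so its size depends on the low P0 level. Leaving out single arrays gave log2 differences of 2.99 to 3.57.

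The promoter of Fgf4 is shown because this gene separated the mesenchyme 1 culture from both other groups. Promoters of 4 of the 8 genes, Fgf4, Fgfr2, Klb and Etv5, were taken from RefSeq (GRCm38.p6) as the 250 bases before an annotated start. They were searched on both strands for GGGCGG (the GC box bound by SP-family factors), CCAAT (the CCAAT box), CCGGAA (a core recognised by ETS factors) and TGANTCA (the AP-1 element). No 2 of these motifs shared bases in the printed sequences, where capitals mark the matches. Over all 32851 promoters in the table, 32.7% hold the GC box, 33.8% the CCAAT box, 12% the ETS core and 6.75% the AP-1 element.
Fgf4, chr7:144861136-144861385, plus strand: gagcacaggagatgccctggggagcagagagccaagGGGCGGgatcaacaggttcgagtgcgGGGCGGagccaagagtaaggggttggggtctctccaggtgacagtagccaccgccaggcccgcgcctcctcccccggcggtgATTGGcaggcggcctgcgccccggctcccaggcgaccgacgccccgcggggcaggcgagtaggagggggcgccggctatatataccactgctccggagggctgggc
The Fgf4 window has 2 GC boxes, beginning 214 and 188 bases before the start, and 1 CCAAT box on the opposite strand at 106. Its G and C content is 71.2%. A match describes the letters only.

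Fgf15, whose human counterpart FGF19 signals from the gut to the liver, had 8.75 and 14.3 on mesenchyme 2, 295 and 289 on mesenchyme 1, and 124 and 103 in P0. The 3 groups did not overlap: mesenchyme 1 was highest, P0 intermediate and mesenchyme 2 at the bottom of the range. The gene was 26.1-fold lower on mesenchyme 2 than on mesenchyme 1 (log2 difference -4.71 ± 0.224, limma adjusted p = 8.31e-06), the fall ranked 3 of 11097 probes. Against P0 it was 10.1-fold lower on mesenchyme 2 (-3.33 ± 0.224, limma adjusted p = 4.43e-05) and 2.59-fold higher on mesenchyme 1 (1.37 ± 0.224, limma adjusted p = 0.00386). Both passaged groups are set against the same P0 arrays. Fgf15 was the only member called in opposite directions against P0. With 50 added to every intensity these folds were 5.57, 2.65 and 2.1, and all 3 calls were kept.

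Fgf17, a ligand of the FGF8 subfamily that acts in early patterning, read 17.6 and 23.4 on mesenchyme 2, 90.2 and 84.6 on mesenchyme 1, and 141 and 123 in P0. P0 was highest and mesenchyme 2 lowest, with no overlap. Mesenchyme 2 was 6.49-fold below P0 (-2.70 ± 0.152, limma adjusted p = 2.33e-05) and 4.31-fold below mesenchyme 1 (-2.11 ± 0.152, limma adjusted p = 3.74e-05). Mesenchyme 1 differed from P0 by -0.59 ± 0.152, short of 2-fold. With 50 added, the difference between the mesenchymes was 1.95-fold and missed the 2-fold limit.

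Of 22 mouse FGF ligand genes listed, 7 had a probe in the table and 15 were not analysed here. All 7 were called between the mesenchymes, 6 lower and 1 higher on mesenchyme 2 (median log2 difference -2.04, against -0.01 over all probes). Of all probes, 12.3% were lower and 13.5% higher. Besides the 3 members, Fgf22 differed by -2.04 (16.7 on mesenchyme 2 and 68.4 on mesenchyme 1), Fgf1 by -1.17 (17.4 on mesenchyme 2 and 39 on mesenchyme 1) and Fgf13, an intracellular member of the family, by -1.08 (26.8 on mesenchyme 2 and 56.7 on mesenchyme 1). These are dim probes. With 16 added 4 ligands were still called lower, without Fgf1 (1.65-fold) and Fgf13 (1.7-fold), and with 50 added 2, Fgf4 and Fgf15. The exception in direction was Fgf10, a mesenchymal ligand of FGFR2 in organs such as the lung, which was 7.27-fold higher on mesenchyme 2 (202) than on mesenchyme 1 (27.8). Its log2 difference was 2.86, and a second probe gave 2.59; with 50 added it was still called, at 3.23-fold. Against P0, Fgf10 rose on mesenchyme 2 by 1.84 and fell on mesenchyme 1 by 1.02, while its second probe differed by 1.72 and -0.87. Against P0, mesenchyme 2 had Fgf10 higher and Fgf15, Fgf17 and Fgf22 (-1.15) lower, and mesenchyme 1 had Fgf4, Fgf15 and Fgf1 (1.21) higher and Fgf10 lower. With 16 added the calls of Fgf22 on mesenchyme 2 and of Fgf1 and Fgf10 on mesenchyme 1 were lost. Of all probes, 9.66% were called higher and 8.65% lower on mesenchyme 2 against P0, and 3.27% and 2.75% on mesenchyme 1 against P0. Of 12 mesenchyme and fibroblast markers, 4 were measured. Their summed intensity was 5140 to 5320 on mesenchyme 2, 5440 to 5850 on mesenchyme 1 and 3780 to 4070 in P0, most of it from Acta2, a smooth muscle actin. On mesenchyme 2 none of the 4 was called against P0; on mesenchyme 1 only the collagen gene Col5a1 was called, and it rose by 1.02. The part of carried-over cells in the ligand levels was not tested.

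Klb encodes beta-Klotho, the co-receptor that lets FGF15 and FGF21 bind their receptors. Its probe had 237 and 246 on mesenchyme 2, 24.6 and 18.6 on mesenchyme 1, and 14.5 and 8.32 in P0. Only mesenchyme 2 lay in the upper part of the intensity range, at percentiles 64.3 and 65.1. Klb was 22-fold higher on mesenchyme 2 than in P0 (4.46 ± 0.26, limma adjusted p = 2.6e-05), the rise ranked 10 of 11097 probes, and 11.3-fold higher than on mesenchyme 1 (3.50 ± 0.26, limma adjusted p = 4.15e-05). With 50 added, these folds were 4.75 and 4.08. Mesenchyme 1 differed from P0 by 0.96 ± 0.26, just short of 2-fold. That difference was 1.36 and called without P0 replicate 1 and 1.16 and called without mesenchyme 1 replicate 2, but 0.56 without P0 replicate 2 and 0.76 without mesenchyme 1 replicate 1, where it was not called. Klb was thus highest in the group where Fgf15, a ligand that uses it, was lowest.

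The Klb promoter is shown as that of the member with the largest rise against P0.
Klb, chr5:65348161-65348410, plus strand: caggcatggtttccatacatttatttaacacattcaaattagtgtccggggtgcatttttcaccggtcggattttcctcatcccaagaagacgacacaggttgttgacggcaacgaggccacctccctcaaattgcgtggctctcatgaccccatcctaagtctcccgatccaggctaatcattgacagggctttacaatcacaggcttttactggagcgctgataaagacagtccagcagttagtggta
None of the 4 motifs was found in this window, which has a G and C content of 48%.

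Fgfr2 encodes a receptor for several FGFs, with splice forms that differ in ligand choice; the form its probe reads was not examined. It read 19.1 and 16.3 on mesenchyme 2, 11.8 and 12.6 on mesenchyme 1, and 30.9 and 32.4 in P0. All 6 values lay at or below percentile 15.5 of their arrays. Fgfr2 was 2.59-fold lower on mesenchyme 1 than in P0 (-1.38 ± 0.11, limma adjusted p = 0.000417), and this call was lost with 16 added (1.69-fold) and with 50 added (1.31-fold). Mesenchyme 2 differed from P0 by -0.84 ± 0.11 and from mesenchyme 1 by 0.53 ± 0.11, both short of 2-fold. Of 8 receptor and co-receptor genes listed, 5, among them Fgfr1, Fgfr3 and Fgfr4, were not analysed here. The third measured gene, Fgfrl1, which lacks the kinase domain, stood at 45.3 on mesenchyme 2, 37.6 on mesenchyme 1 and 44.9 in P0 and was called in no comparison.

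Dusp4, a nuclear phosphatase that inactivates ERK and is induced by it, was read by 2 probes. The brighter gave 422 and 367 on mesenchyme 2, 139 and 132 on mesenchyme 1, and 82.5 and 89.1 in P0. The dimmer gave 87.8 and 90.7 on mesenchyme 2, 33.1 and 30.4 on mesenchyme 1, and 19.2 and 21 in P0. Both probes ordered the groups alike, with mesenchyme 2 highest and P0 lowest and no overlap. Dusp4 was 4.59-fold higher on mesenchyme 2 than in P0 by the brighter probe (2.20 ± 0.108, limma adjusted p = 1.42e-05) and 4.45-fold by the dimmer (2.15 ± 0.0982, limma adjusted p = 1.2e-05). Mesenchyme 2 also exceeded mesenchyme 1, by 1.54 ± 0.108 and 1.49 ± 0.0982. Mesenchyme 1 differed from P0 by 0.66 on both probes, short of 2-fold. With 50 added, the dimmer probe lost its calls (1.99-fold and 1.7-fold) and the brighter kept them (3.27-fold and 2.39-fold).

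Etv5 encodes an ETS-family transcription factor that FGF signalling induces in many embryonic tissues. It had 150 and 144 on mesenchyme 2, 513 and 501 on mesenchyme 1, and 445 and 521 in P0. The mesenchyme 2 arrays stood apart, and those of mesenchyme 1 lay within the range of P0. Etv5 was 3.27-fold lower on mesenchyme 2 than in P0 (-1.71 ± 0.107, limma adjusted p = 3.34e-05) and 3.44-fold lower than on mesenchyme 1 (-1.78 ± 0.107, limma adjusted p = 1.84e-05). Mesenchyme 1 and P0 differed by 0.08 ± 0.107 (limma adjusted p = 0.59), and the sign turned to -0.04 without P0 replicate 1. Etv5 and Dusp4, both ERK-induced genes, thus moved in opposite directions on mesenchyme 2. Etv4, the other ETS-family gene measured from the list of ERK targets, stood at 280 on mesenchyme 2, 157 on mesenchyme 1 and 293 in P0. It was called in no comparison.

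The promoters of both annotated Etv5 starts are shown because Etv5 is the brightest member lower on mesenchyme 2, and they differ in motif content.
Etv5, upstream start, chr16:22439571-22439820, minus strand: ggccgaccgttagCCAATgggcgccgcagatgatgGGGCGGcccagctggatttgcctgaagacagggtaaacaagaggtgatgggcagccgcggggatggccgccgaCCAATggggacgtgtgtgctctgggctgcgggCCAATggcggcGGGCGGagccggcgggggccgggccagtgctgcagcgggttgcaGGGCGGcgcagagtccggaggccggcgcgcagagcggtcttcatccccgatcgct
Etv5, downstream start, chr16:22438369-22438618, minus strand: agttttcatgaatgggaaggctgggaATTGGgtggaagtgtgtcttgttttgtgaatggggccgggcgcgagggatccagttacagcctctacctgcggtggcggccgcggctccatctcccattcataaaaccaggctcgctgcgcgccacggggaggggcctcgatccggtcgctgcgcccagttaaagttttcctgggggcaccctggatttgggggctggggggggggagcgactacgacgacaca
The first has 3 GC boxes, 215, 99 and 55 bases before its start, and 3 CCAAT boxes, at 237, 142 and 110. The second has 1 CCAAT box, on the opposite strand at 224, and no GC box. The ETS core and the AP-1 element were found in neither. Which start these cells use was not measured.

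Phlda1 encodes a pleckstrin-homology-like protein that is induced by growth factor and ERK signalling. It read 425 and 435 on mesenchyme 2, 111 and 118 on mesenchyme 1, and 241 and 239 in P0. The groups did not overlap, with P0 between the passaged cultures. Phlda1 was 3.76-fold higher on mesenchyme 2 than on mesenchyme 1 (1.91 ± 0.0886, limma adjusted p = 7.63e-06). It was 2.1-fold lower on mesenchyme 1 than in P0 (-1.07 ± 0.0886, limma adjusted p = 0.00046), a call lost with 16 added (1.96-fold) and with 50 added (1.76-fold). Mesenchyme 2 differed from P0 by 0.84 ± 0.0886, short of 2-fold.

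**Figure D2:**
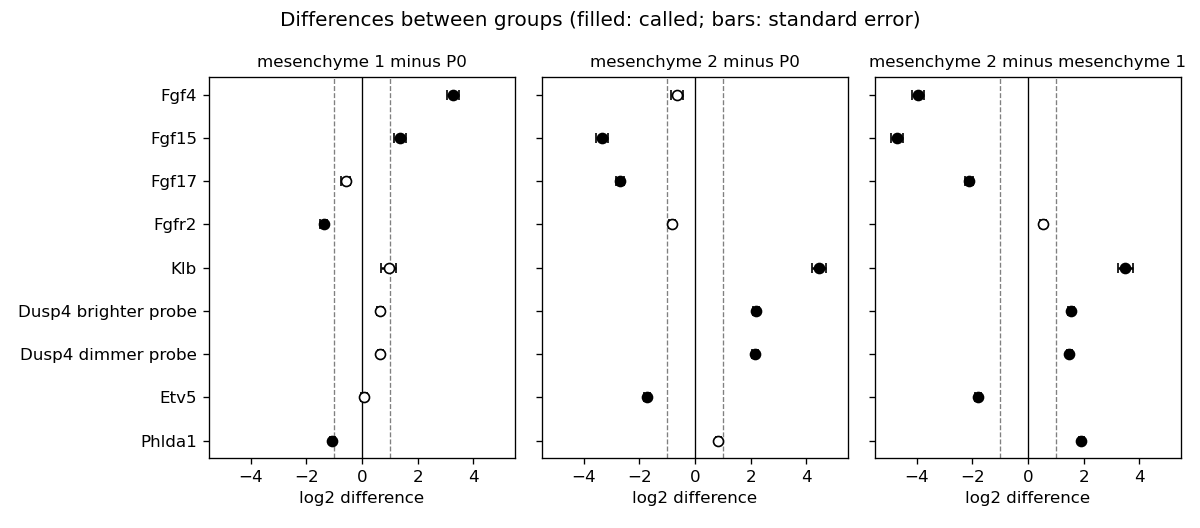
Log2 differences of the 9 member probes in the 3 comparisons; bars are standard errors of the limma fit, dashed lines mark 2-fold, and filled points were called. Between the mesenchymes 8 of 9 points are filled, 4 on each side of 0.

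The other genes of the ERK target list were split in direction as well. Of 29 listed genes 17 were measured, the 3 members included. Between the mesenchymes 6 were higher and 4 lower on mesenchyme 2 (median 0.11), where 13.5% of all probes were higher and 12.3% lower. With 50 added the counts were 5 and 2. The immediate early gene Fos was higher by 2.09 (900 on mesenchyme 2 and 211 on mesenchyme 1) and Ier3 by 2.01 (629 on mesenchyme 2 and 157 on mesenchyme 1). Ccnd1, which encodes cyclin D1, differed by -3.03 (104 on mesenchyme 2 and 852 on mesenchyme 1), and Il17rd, an inhibitor of FGF signalling, by -1.28 (21.3 on mesenchyme 2 and 51.7 on mesenchyme 1). The call of Il17rd was lost with 16 added (1.81-fold). Against P0, 3 rose on mesenchyme 2, Dusp4, Ier3 (1.35) and Fos (1.11), and 3 fell, Etv5, Ccnd1 (-3.20) and Myc (-1.06), the last with 10.6 on mesenchyme 2 and 22.1 in P0 and not called with 16 added. On mesenchyme 1 none rose and 2 fell against P0, Phlda1 and the AP-1 gene Junb (-1.53). Over all probes, 9.66% were called higher and 8.65% lower on mesenchyme 2 against P0, and 3.27% and 2.75% on mesenchyme 1 against P0. Egr1 and Spry4 were called in no comparison; Egr1, an ERK-induced zinc finger factor, had 2230 on mesenchyme 2, 2070 on mesenchyme 1 and 1770 in P0. Dusp6, the cytoplasmic ERK phosphatase, differed between the mesenchymes by -0.65 on its brightest probe, and by -0.81 and -1.54 on its others, so its probes disagree on a 2-fold change. The probe at -1.54 is dim, with 10.7 on mesenchyme 2 and 31.2 on mesenchyme 1.

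Of 26 listed genes of the RAS-ERK cascade 11 were measured. None was called between mesenchyme 1 and P0, a comparison in which 6.02% of all probes were called; there the brightest, the adaptors Shc1 and Gab1, differed by 0.19 and 0.84. Against P0 only Frs3, an FGF receptor docking protein, rose on mesenchyme 2 (1.05, with 95 on mesenchyme 2 and 45.8 in P0), and this call was lost with 16 added. None of the 11 fell. Over all probes, 9.66% were called higher and 8.65% lower in that comparison, so the count is near the background. Between the mesenchymes Frs3 (1.69) and the small GTPase gene Rras (1.38) were higher on mesenchyme 2, and none of the 11 was lower, beside 13.5% of all probes higher and 12.3% lower. With 50 added, Frs3 was no longer called there (1.82-fold). Of the 3 probes of Ptpn11, the phosphatase SHP2, the brightest differed there by 0.86 and the others by 1.04 and 1.06. Of 20 heparan sulfate genes 14 were measured, with none called between mesenchyme 1 and P0; with so few genes, 0 calls is close to the share over all probes. The brightest, Extl3 and Gpc3, differed by 0.55 and -0.39. On mesenchyme 2, Hs3st1, a heparan sulfate sulfotransferase, rose by 3.86 against P0 (2500 on mesenchyme 2 and 172 in P0), and Sulf1, which removes sulfate groups from heparan sulfate, fell by 1.65 (99.1 on mesenchyme 2 and 311 in P0). No other of the 14 was called there, so this count too is near the share over all probes. Between the mesenchymes Hs3st1 (3.95), the syndecan gene Sdc4 (1.42) and the glypican gene Gpc3 (1.12) were higher on mesenchyme 2, and Sulf1 (-2.30) and Sdc1 (-1.09) lower. Sdc1 was dim, with 15.3 on mesenchyme 2 and 32.4 on mesenchyme 1, and its call was lost with 16 added (1.55-fold). A second, dimmer Sdc1 probe differed by -1.36.

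**Figure D3:**
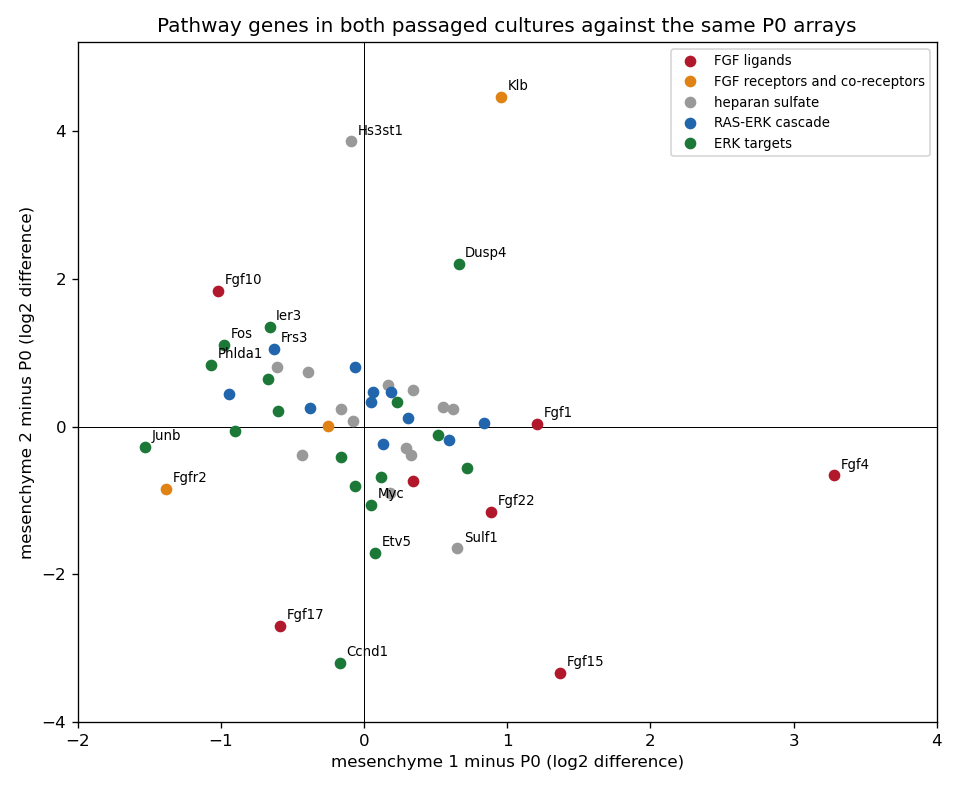
Log2 difference of each measured pathway gene on mesenchyme 2 against P0 (vertical) and on mesenchyme 1 against P0 (horizontal), coloured by list; both axes share the P0 arrays, so the position along the diagonal is not independent. Klb (4.46) and Hs3st1 (3.86) stand highest, Fgf15 (-3.33) and Ccnd1 (-3.20) lowest, and Fgf4 (3.28) farthest right.

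Among 6044 named genes with a mean intensity of at least 50, the nearest to each member in the pair of log2 differences from P0 were listed (Euclidean distance, 6 arrays in 3 groups). Fgf4 had no close match: Atad2 was nearest at 0.993 and Wt1 next at 1.28. Those of Fgf15 were Enox1 (0.48) and Tdrd12 (0.932). Closer matches were found for Fgf17 with Eras (0.128) and Oasl2 (0.155), for Fgfr2 with Slc52a3 (0.0313) and Wfdc2 (0.077), and for Klb with Drp2 (0.274) and Dram1 (0.31). Dusp4 lay nearest Gdpd5 (0.123) and Ctsa (0.194), Etv5 nearest Lrmp (0.0811) and Nsdhl (0.0842), and Phlda1 nearest Nid1 (0.05) and Plac8 (0.0995). A distance also depends on how many genes have differences of similar size. No background distance was computed, so these values do not rank the members. The place of Fgfr2 rests on low intensities.

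Markers of other cell types also differed between the groups, not all in the same way. Over all probes, 9.66% were called higher and 8.65% lower on mesenchyme 2 than in P0. All 13 measured parietal endoderm markers were higher on mesenchyme 2 than in P0, with summed intensities of 36800 to 37500 on mesenchyme 2, 6490 to 6740 on mesenchyme 1 and 6170 to 6290 in P0. So were all 7 measured of 12 visceral endoderm markers, which summed to 7680 to 8080 on mesenchyme 2, 968 to 1010 on mesenchyme 1 and 1440 to 1460 in P0. These sums mostly follow the brightest genes. On mesenchyme 1 against P0, 4 parietal markers were called higher and 1 lower, and 2 visceral markers higher and 1 lower. Over all probes, 3.27% were called higher and 2.75% lower in that comparison. Of 12 pluripotency markers 7 were lower and 1, Klf4, was higher on mesenchyme 2 than in P0, although 2 other Klf4 probes differed by -0.17 and -0.20 and were not called. The sums were 16900 to 17600 on mesenchyme 2, 26800 to 28300 on mesenchyme 1 and 28900 to 30200 in P0. Of 8 measured of 13 definitive endoderm markers, 2 (Sox17 and Krt18) were higher and 2 (Trh and Eomes) lower on mesenchyme 2 than in P0. The sums were 8510 to 8650 on mesenchyme 2, 3750 to 3790 on mesenchyme 1 and 6320 to 6420 in P0. Their order rests largely on 2 keratin genes. Krt8 had 4380 on mesenchyme 2, 889 on mesenchyme 1 and 2450 in P0. Krt18 had 2220 on mesenchyme 2, 307 on mesenchyme 1 and 965 in P0. Of 5 measured of 10 trophoblast markers, 4 were lower on mesenchyme 2 than in P0 (sums of 688 to 705 on mesenchyme 2, 789 to 823 on mesenchyme 1 and 1560 on both P0 arrays). On mesenchyme 1, 3 were lower than in P0, where 2.75% of all probes were. Most of each sum came from Tfap2c (446 on mesenchyme 2, 667 on mesenchyme 1 and 1090 in P0). Between the mesenchymes, 3 trophoblast markers were called higher on mesenchyme 2 and none lower (median 1.26), unlike the order of the sums. In that comparison 13.5% of all probes were higher and 12.3% lower. No marker read 0, since the lowest intensity on any array was 7.49. The part of these markers' cell types in the levels of the FGF and ERK genes was not tested.

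**Figure D4:**
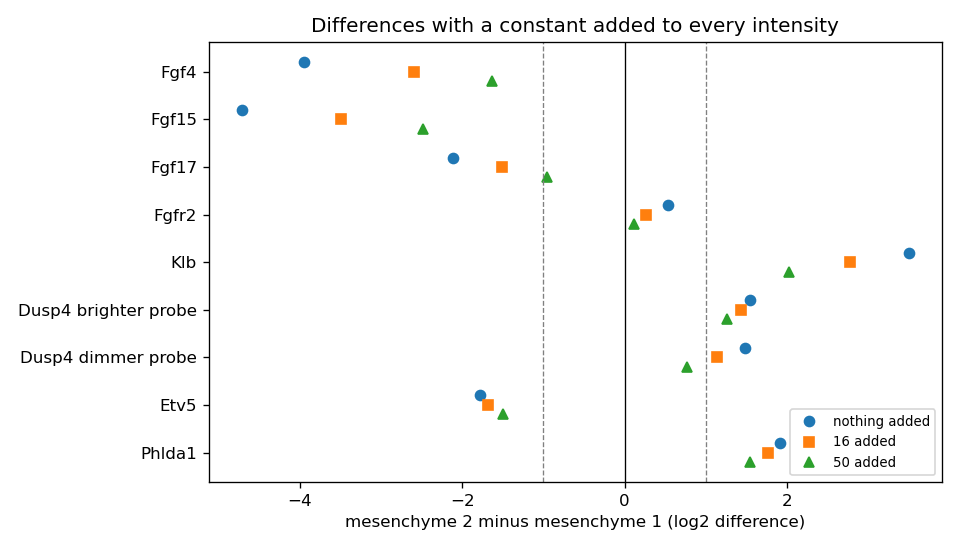
Log2 difference between mesenchyme 2 and mesenchyme 1 for the 9 member probes with nothing, 16 or 50 added to every intensity; dashed lines mark 2-fold. No probe changed sign, Fgf15 moved to -2.48 with 50 added, and Fgf17 (-0.96) and the dimmer Dusp4 probe (0.77) fell inside the 2-fold lines.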

How the data were processed

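The value table that the authors deposited holds a normalized intensity per probe and array, linear and not centred per probe. The submitters' processing notes name BeadStudio; how background, normalization and probe selection were handled, and the build, is not given in the sources used here. The table holds 11097 of 25697 scanner probes (43.2%), and 12 signal and detection columns of the scanner table match no sample label and were not used. Platform annotation gave 1 symbol to 10475 probes, several to 0 and none to 622; 10471 matched a RefSeq gene (GRCm38.p6).

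Log2 intensities of all probes were fitted with limma 3.58.1 (R 4.3.3), with 1 mean per group over 6 arrays (3 residual and 3.7 prior degrees of freedom), and adjusted by Benjamini-Hochberg within a contrast. Calls needed an adjusted p under 0.05 and at least 2-fold. The procedure was tested on simulated data. In lists, the probe with the highest mean log2 intensity stood for a gene. Named genes were all members, the 2 largest called rises and falls per pathway list (or the 2 brightest where none was called; all of counts of 5 or fewer could be named), the 2 nearest genes per member, and Sox17, Pou5f1 and Nanog. Egr1, Spry4, Etv4, Dusp6, Ptpn11, Fgfrl1, Acta2, Tfap2c and Sox2 were added after their values were seen. Members and lists were chosen with earlier results of these data known. Same-numbered arrays did not deviate together (correlations -0.0153 to 0.00916). The number of arrays limits the precision.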

Additional observations from a re-analysis of the deposited data

Results flagged for a closer look

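The differences of both passaged groups from P0 share the P0 arrays, so their contrast is the comparison of mesenchyme 2 with mesenchyme 1 itself. By that comparison, 8 member probes differed between the passaged groups. The log2 differences (mesenchyme 2 minus mesenchyme 1) were -3.95 for Fgf4, -4.71 for Fgf15, -2.11 for Fgf17 and -1.78 for Etv5, and 3.50 for Klb, 1.91 for Phlda1, and 1.54 and 1.49 for the brighter and dimmer Dusp4 probes. Fgfr2, at 0.53, was not among them. Groups of 2 arrays were too small to look for outlying arrays.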

How the results depend on the processing

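Adding a constant and testing against a 2-fold change moved the counts most. For mesenchyme 1 against P0, member calls were 2 with 16 added, 2 with 50 added and 1 in the test against 2-fold, in place of 4, where Fgf4 alone passed; pathway list calls were 3 with 16 added and 2 with 50 added, in place of 7. Calls over all probes were 318 with 16 added, 139 with 50 added, 381 at a mean intensity of at least 50 and 105 in the test against 2-fold, in place of 668. For mesenchyme 2 against P0 they were 1348, 871 and 825 (16 added, 50 added, against 2-fold), in place of 2032. Between the mesenchymes they were 1307 with 50 added and 1453 against 2-fold, in place of 2863, and pathway list calls were 16 with 50 added in place of 25. Leaving out single arrays gave 4 to 5, 6 to 6 and 8 to 8 member calls in the comparisons of mesenchyme 1 with P0, of mesenchyme 2 with P0 and between the mesenchymes, and 667 to 721, 2032 to 2092 and 2862 to 2905 calls over all probes; a lone array was assumed to vary like the others. Of 396 member values under the alternatives, 383 kept direction and call. Many of these could not change direction. The test against 2-fold, the replicate block, 1 probe per gene and the intensity filter leave the log2 differences as they were. So do fits of only the groups compared and those without an array of a group not compared. The count therefore says less about robustness than the settings with a constant added. The 1 reversal was Etv5 between mesenchyme 1 and P0, at -0.04 without P0 replicate 1 (range to 0.19 over single arrays left out); the cause was not tested. No member call changed with median centring, quantile normalization, 1 probe per gene or only the 2 groups compared. With the replicate block, calls over all probes were 668, 2031 and 2861, and the block changed no member call; same-numbered arrays share only a number. Signal near the low end limits Fgf4, Fgf15, Fgf17, Klb and the dimmer Dusp4 probe in their lowest groups and Fgfr2 throughout.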

Other observations

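Sox2 encodes a transcription factor that, with the product of Pou5f1, is known to activate Fgf4 through an enhancer, and its 2 probes disagreed. These values were picked out after they were seen. The dimmer probe read 35.7 and 36.5 on mesenchyme 2, 217 and 236 on mesenchyme 1, and 29.4 and 32.2 in P0, so it was high on mesenchyme 1 alone. It was called higher on mesenchyme 1 than in P0 (log2 difference 2.88, limma adjusted p = 6.26e-05) and lower on mesenchyme 2 than on mesenchyme 1 (-2.65, limma adjusted p = 3.98e-06). The brighter Sox2 probe read 280 and 306 on mesenchyme 2, 453 and 493 on mesenchyme 1, and 465 and 403 in P0 and was called in no comparison. Which part of the transcript each probe reads was not examined. The probes of Pou5f1 stood at 1020 and 553 on mesenchyme 2, 2280 and 1610 on mesenchyme 1, and 2830 and 2150 in P0. The part of Sox2 or Pou5f1 in the Fgf4 level was not tested.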
